A study of Mus musculus with 16 samples.

Results

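The genes described here are 7 genes of the MHC class II antigen presentation pathway: Cd74, H2-Aa, H2-Ab1, H2-Eb1, H2-DMa, H2-DMb1 and Ciita. They were taken by gene symbol from a deposited table of 54532 entries. All 7 were in the table, and all 7 passed the filter on low counts, among 17736 genes tested. RNA from brain tissue of female mice aged 9 months was sequenced in bulk, with 4 libraries in each of 4 groups (16 in all). Ch25h+/+ Tau- mice carry both copies of Ch25h, which encodes cholesterol 25-hydroxylase, and no tau transgene, as the label is read here. Ch25h+/+ Tau+ mice are labelled positive for tau, Ch25h-/- Tau- mice lack Ch25h, and Ch25h-/- Tau+ mice lack Ch25h and are labelled positive for tau. The labels do not say which tau sequence or promoter was used, and the loss of Ch25h is not limited to 1 cell type by any label. The tissue label is frontal cortex while the series text names hippocampus.

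MHC class II molecules are pairs of an alpha and a beta chain that carry peptides from the endosome to the cell surface, where CD4 T cells read them. The invariant chain Cd74 escorts new pairs to the endosome, cathepsins cut it down to a short remnant, and the H2-DM pair exchanges that remnant for peptide. Ciita switches the whole set on by binding factors that sit on the X and Y boxes of the class II promoters. In the brain parenchyma microglia are the main cells that can turn class II on, and they hold little of it at rest.

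The libraries held 15530352 to 25602500 counts. Ch25h had 0 counts in all 8 Ch25h-/- libraries and 5 to 30 counts in the Ch25h+/+ libraries. Levels of Prnp rose with tau by 1.1 on the log2 scale in both Ch25h genotypes. The summed level of 6 cortex markers was 629 to 851 CPM (gene counts scaled to the depth of the library), and that of 7 hippocampus markers was 214 to 410 CPM. Of the 8 Ch25h-/- libraries, 7 were rich in a ribosomal RNA transcript (2289 to 5684 CPM of the total). The other 9 libraries, which are all 8 Ch25h+/+ libraries and Ch25h-/- Tau+ replicate 1, held 111 to 475. Library class and Ch25h genotype therefore cannot be told apart in Tau-, and in Tau+ only that 1 Ch25h-/- library separates them. The sample titles number each library differently, but no label says that each is a separate animal, so p-values measure the spread between these samples, which may be technical. In bulk tissue, fewer cells of a type and less RNA per cell cannot be told apart.

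Among the 7 genes, H2-Aa, H2-Ab1, H2-Eb1, H2-DMa and H2-DMb1 lie in the class II region of chromosome 17 (GRCm38, GENCODE M21). H2-Ab1 spans chr17:34257689-34269419, H2-Aa chr17:34282744-34287823, H2-Eb1 chr17:34305867-34316674, H2-DMa chr17:34119541-34139101 and H2-DMb1 chr17:34153072-34160230. Ciita spans chr16:10480059-10528418, and Cd74 also lies outside the class II region. All are protein coding, and each value below is a count over the whole gene. Reads of 4 of them may be shared with other genes: 22.7% of the 50-base words of H2-DMb1 transcripts also occur in its neighbour copy H2-DMb2, 8.43% of those of H2-DMa occur in Brd2 on the opposite strand, and 1.46% of those of Ciita occur in Dexi. Of the words of H2-Aa, 0.514% occur in other genes, mostly Vmn1r221. H2-Eb1 overlaps an antisense gene, and the use of strand in the counting is not given in the sources used here.

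Promoters of the class II genes are known for an X box followed by a Y box, the sites read by the complex to which Ciita binds. RefSeq promoter sequences (GRCm38.p6, from 250 bases before to 50 bases after the start) were matched by symbol for H2-Aa, H2-Eb1, H2-DMb1 and H2-DMa, which has 2 entries. No entry was used for Cd74, H2-Ab1 or Ciita, so nothing is reported on the promoters of these genes. Both strands were searched for the X core letters GNAAC followed 28 to 38 bases later by the Y letters ATTGG, a pattern chosen after the sequences had been viewed. GNAAC alone occurred in 84.8% of 32851 promoters, ATTGG alone in 37.4%, and the spaced pair in 598, or 1.82%. The pair was present in H2-Aa, H2-Eb1 and H2-DMb1, and its letters were not in either H2-DMa window. It was also present in H2-Oa and H2-Ob, the 2 other class II region genes that passed the filter on low counts, and in H2-Eb2, which held at most 3 counts in any library. The windows of H2-DMb2 and Btnl2 did not hold it. The windows below show where the pair lies in genes whose log2 fold changes are given below, with the X core and the Y box in capitals, each 5′ to 3′ on the strand of its gene. They come from chr17:34287847-34287924 (minus strand) for H2-Aa, chr17:34305756-34305832 (plus) for H2-Eb1, chr17:34092283-34092360 (plus) for H2-Oa and chr17:34238798-34238872 (plus) for H2-Ob.
H2-Aa: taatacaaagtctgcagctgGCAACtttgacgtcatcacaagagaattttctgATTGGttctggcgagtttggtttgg
H2-Eb1: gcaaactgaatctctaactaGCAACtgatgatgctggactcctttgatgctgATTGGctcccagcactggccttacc
H2-Oa: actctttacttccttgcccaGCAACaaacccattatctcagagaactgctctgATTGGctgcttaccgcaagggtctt
H2-Ob: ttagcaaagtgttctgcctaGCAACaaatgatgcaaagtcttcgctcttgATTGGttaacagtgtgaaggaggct
The X core began 81 bases before the start in H2-Aa, 91 in H2-Eb1, 76 in H2-Oa and 87 in H2-Ob, and the Y box followed it by 33, 32, 33 and 30 bases. In H2-DMb1 the X core began 94 bases before the start and the Y box followed by 33. A match is a description of letters and not a measured binding site.

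With Ch25h present, tau was accompanied by a large rise in the class II genes. Of the 7 genes, 6 were higher in Ch25h+/+ Tau+ than in Ch25h+/+ Tau- (edgeR quasi-likelihood test, Benjamini-Hochberg adjusted p under 0.05), where 1.47% of all genes tested were higher. For the same 6 the 2 groups did not overlap, as was so in this direction for 3.89% of all genes. The median log2 fold change over the 7 was 2.86, against -0.01 over all genes. The rise was largest in the invariant chain and the classical chains, smaller in the DM chains, and Ciita did not pass. With Ch25h absent none of the 7 passed, and without tau none passed between the Ch25h genotypes. The plot of the 7 genes by library shows every value.

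**Figure D1:**
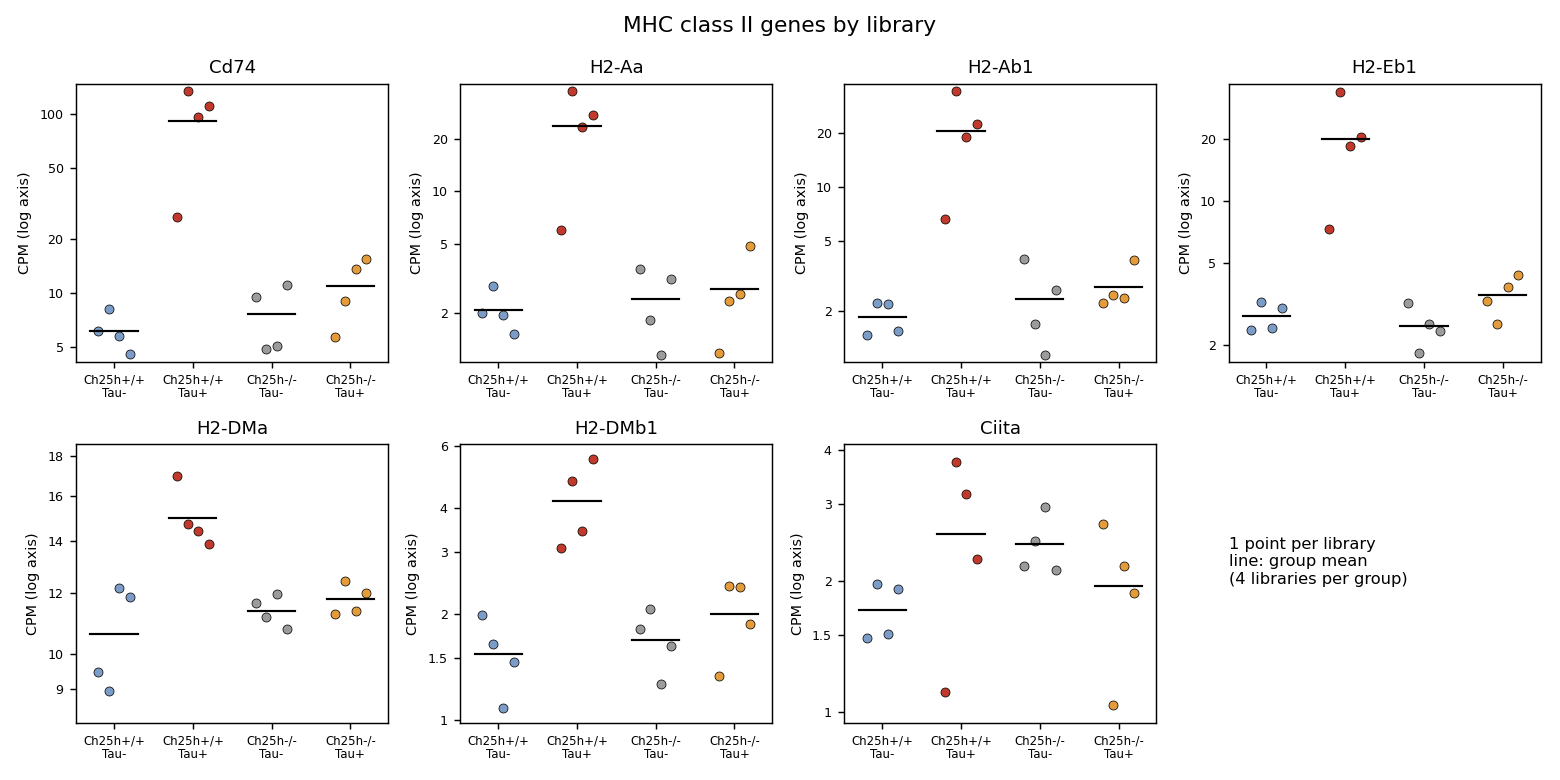
Level of each of the 7 class II genes in CPM (log axis) in each of the 16 libraries, by group, with the mean of the 4 libraries as a line. Cd74 lay between 26.4 and 134 CPM in Ch25h+/+ Tau+ and between 4.53 and 15.6 CPM in every other library.

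Cd74, the invariant chain, had the largest rise of the 7. It stood at 6.10, 8.10, 5.74 and 4.53 CPM in Ch25h+/+ Tau- and at 26.4, 134, 95.8 and 110.0 CPM in Ch25h+/+ Tau+ (replicates 1 to 4 in each case). In Ch25h-/- Tau- it stood at 9.52, 4.88, 5.06 and 11 CPM, and in Ch25h-/- Tau+ at 5.67, 8.97, 13.6 and 15.6 CPM. Every Ch25h+/+ Tau+ library lay above every library of the other 3 groups, and those 3 groups overlapped. Group means were 6.12 ± 1.48, 91.5 ± 46.1, 7.63 ± 3.13 and 10.9 ± 4.47 CPM (SD, n = 4 each). The tau effect in Ch25h+/+ was 15-fold (log2 fold change 3.91, SE 0.42, edgeR adjusted p = 4.35e-05). The tau effect in Ch25h-/- was 0.50 (SE 0.41, adjusted p = 1).

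H2-Aa and H2-Ab1 encode the alpha and the beta chain of the I-A molecule, so a cell needs both. H2-Aa stood at 1.99, 2.84, 1.94 and 1.51 CPM in Ch25h+/+ Tau- and at 5.97, 37.9, 23.5 and 27.4 CPM in Ch25h+/+ Tau+. Without Ch25h it stood at 3.55, 1.82, 1.15 and 3.12 CPM in Tau- and at 1.17, 2.34, 2.56 and 4.81 CPM in Tau+. Again the 4 Ch25h+/+ Tau+ libraries lay above all others, and the lowest of them was only a little above the highest Ch25h-/- Tau+ library. H2-Aa rose 11.5-fold with tau in Ch25h+/+ (log2 fold change 3.52, SE 0.47, edgeR adjusted p = 0.000319), and its tau effect in Ch25h-/- was 0.14 on the log2 scale (adjusted p = 1).

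H2-Ab1 followed the same order. Its values were 1.48, 2.24, 2.20 and 1.56 CPM in Ch25h+/+ Tau- and 6.59, 34.6, 19.2 and 22.6 CPM in Ch25h+/+ Tau+. Without Ch25h they were 3.92, 1.71, 1.15 and 2.62 CPM in Tau- and 2.23, 2.47, 2.39 and 3.87 CPM in Tau+. The 3 low groups overlapped and the Ch25h+/+ Tau+ libraries stood above them. The rise with tau in Ch25h+/+ was 11.1-fold (log2 fold change 3.47, SE 0.41, edgeR adjusted p = 8.08e-05), and the tau effect in Ch25h-/- was 0.21 (adjusted p = 1).

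The alpha and the beta chain kept close to each other within libraries. Per kilobase of exon, the level of H2-Aa spanned 0.597 to 0.909 of that of H2-Ab1 for Ch25h+/+ Tau-, and 0.613 to 0.827 for Ch25h+/+ Tau+. Without Ch25h the ratio spanned 0.614 to 0.806 for Tau-, and 0.356 to 0.840 for Tau+, where H2-Aa rested on 30 to 77 counts. The 4 ranges overlapped. On the same scale Cd74 was 1.05 to 1.57 times the sum of H2-Aa, H2-Ab1 and H2-Eb1 for Ch25h+/+ Tau- libraries, and 1.96 to 2.48 times that sum for Ch25h+/+ Tau+ libraries, ranges that do not overlap. It was 1.38 to 2.16 and 1.18 to 2.27 times the sum in Ch25h-/- Tau- and Tau+. No test was made on these ratios.

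H2-Eb1 encodes the beta chain of the I-E molecule. It stood at 2.36, 3.23, 2.42 and 3.02 CPM in Ch25h+/+ Tau- and at 7.33, 33.5, 18.4 and 20.3 CPM in Ch25h+/+ Tau+. In Ch25h-/- it stood at 3.19, 1.82, 2.53 and 2.34 CPM in Tau- and at 3.29, 2.53, 3.81 and 4.37 CPM in Tau+. The Ch25h+/+ Tau+ libraries were again the 4 highest. The rise was 7.25-fold (log2 fold change 2.86, SE 0.32, edgeR adjusted p = 6.52e-05), and the tau effect in Ch25h-/- was 0.50 (adjusted p = 1). The gene of its alpha chain partner is annotated as the polymorphic pseudogene H2-Ea-ps, which had 0 counts in all 16 libraries. A count of 0 allows up to 3 counts in a library.

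The DM chains, which load peptide in the endosome, changed less and unequally. H2-DMa stood at 9.47, 8.97, 12.2 and 11.8 CPM in Ch25h+/+ Tau- and at 16.9, 14.7, 14.4 and 13.9 CPM in Ch25h+/+ Tau+. It stood at 11.6, 11.2, 11.9 and 10.8 CPM in Ch25h-/- Tau- and at 11.3, 12.4, 11.4 and 12 CPM in Ch25h-/- Tau+. Here the highest of the 4 Ch25h+/+ Tau+ libraries was replicate 1, which was the lowest of them for the 4 genes above. The rise was 1.41-fold (log2 fold change 0.49, SE 0.11, edgeR adjusted p = 0.0241). The call was lost in 5 of the alternatives tried, with adjusted p of 0.00277 to 0.125 over all of them. Without Ch25h+/+ Tau+ replicate 1 the log2 fold change was 0.44 and the adjusted p 0.0598, and without Ch25h+/+ Tau- replicate 1 or 2 the adjusted p was 0.103 or 0.0934.

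H2-DMb1 stood at 1.99, 1.64, 1.08 and 1.46 CPM in Ch25h+/+ Tau- and at 3.08, 4.75, 3.44 and 5.51 CPM in Ch25h+/+ Tau+. It stood at 1.81, 2.06, 1.27 and 1.62 CPM in Ch25h-/- Tau- and at 1.33, 2.40, 2.39 and 1.87 CPM in Ch25h-/- Tau+. The Ch25h+/+ Tau+ libraries were the 4 highest. The rise was 2.73-fold (log2 fold change 1.45, SE 0.25, edgeR adjusted p = 0.00291). Its copy H2-DMb2, which shares part of its sequence, held 1 to 13 counts per library and was not tested.

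Ciita, the transactivator, was low in all libraries, at 16 to 89 counts. Its values were 1.48, 1.97, 1.51 and 1.91 CPM in Ch25h+/+ Tau- and 1.11, 3.74, 3.16 and 2.24 CPM in Ch25h+/+ Tau+. They were 2.17, 2.47, 2.95 and 2.12 CPM in Ch25h-/- Tau- and 2.7, 1.04, 2.16 and 1.87 CPM in Ch25h-/- Tau+. Of the Ch25h+/+ Tau+ libraries, 3 lay above every Ch25h+/+ Tau- library and replicate 1 lay below every one. The log2 fold change was 0.60 (SE 0.31, edgeR adjusted p = 0.591). Without that library it was 0.84 (adjusted p = 0.156), against a range of 0.156 to 0.871 over the alternatives.

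Levels per kilobase of exon put the genes in order. In Ch25h+/+ Tau- the means were 3.64 ± 0.881 CPM per kb for Cd74, 3.08 ± 0.471 for H2-DMa and 1.42 ± 0.224 for H2-Eb1 (SD, n = 4). Cd74 and H2-DMa did not differ beyond their spread. Next were H2-DMb1 at 0.917 ± 0.225, H2-Ab1 at 0.729 ± 0.158 and H2-Aa at 0.545 ± 0.147, where neighbours in the order did not differ beyond their spread, and Ciita was last at 0.180 ± 0.0272. In Ch25h+/+ Tau+ Cd74 reached 54.5 ± 27.5, H2-Eb1 10.2 ± 5.53, H2-Ab1 8.08 ± 4.49 and H2-Aa 6.23 ± 3.49 CPM per kb. H2-DMa, which had been second, followed at 4.35 ± 0.392, then H2-DMb1 at 2.5 ± 0.674 and Ciita at 0.269 ± 0.121. The 3 classical chains and H2-DMa overlapped in their spread. In Ch25h-/- the order of Cd74, H2-DMa and H2-Eb1 as the first 3 was the same in Tau- and in Tau+.

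Within Ch25h+/+ Tau+, replicate 1 stood apart for several of the class II genes. The mean of the other 3 libraries over replicate 1 was 4.28 for Cd74, 4.95 for H2-Aa, 3.86 for H2-Ab1, 3.28 for H2-Eb1 and 2.75 for Ciita. It was 1.48 for H2-DMb1 and 0.846 for H2-DMa. For Ctss it was 1.01, for Lag3 1.06, for B2m 0.874 and for Csf1r 1.15, while for Itgax it was 4.3. These 5 genes were chosen after their values were seen. So were Zbtb20 at 3.09, Nlrc5 at 1.89, Rfxap at 0.666 and Mrc1 at 0.583. For these genes too replicate 1 stood apart, so its deviation was not particular to class II. Replicate 1 still lay above every Ch25h+/+ Tau- library for Cd74, H2-Aa, H2-Ab1 and H2-Eb1. Without it the log2 fold changes were 4.22 for Cd74, 3.85 for H2-Aa, 3.77 for H2-Ab1 and 3.13 for H2-Eb1, with edgeR adjusted p of 7.75e-07 to 1.08e-05. The plot of the 4 libraries gene by gene shows this.

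**Figure D2:**
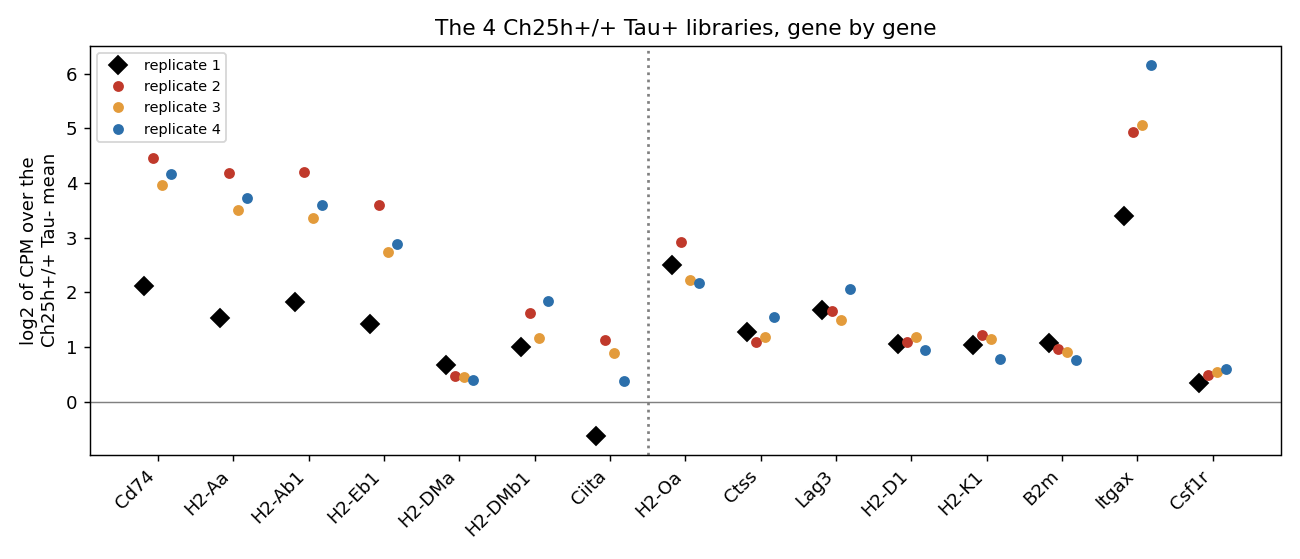
Log2 of the CPM of each Ch25h+/+ Tau+ library over the Ch25h+/+ Tau- mean, for the 7 class II genes (left of the dotted line) and 8 other genes, with replicate 1 as a black diamond. Replicate 1 is the lowest library for Cd74, H2-Aa, H2-Ab1, H2-Eb1, H2-DMb1 and Ciita and the highest for H2-DMa.

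In Tau+ mice, loss of Ch25h went with lower class II RNA. Of the 7 genes, 5 were lower in Ch25h-/- Tau+ than in Ch25h+/+ Tau+ (edgeR adjusted p under 0.05), where 2.40% of all genes tested were lower. The median log2 fold change over the 7 was -2.51, against 0.00 over all genes. For 6 of the 7 the groups did not overlap, which was so in this direction for 5.74% of all genes. The Ch25h+/+ Tau+ libraries serve in the comparison above as well, so the values of both are given side by side and were not related to each other.

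Cd74 was 8.46-fold lower (log2 fold change -3.08, SE 0.40, edgeR adjusted p = 0.000482). H2-Aa was 8.93-fold lower (-3.16, SE 0.47, adjusted p = 0.00146). H2-Ab1 was 7.64-fold lower (-2.93, SE 0.39, adjusted p = 0.000667), and H2-Eb1 5.69-fold lower (-2.51, SE 0.32, adjusted p = 0.000432). The peptide loader H2-DMb1 was 2.13-fold lower (-1.09, SE 0.25, adjusted p = 0.0272). H2-DMa at -0.35 (SE 0.11, adjusted p = 0.0778) and Ciita at -0.39 (SE 0.31, adjusted p = 0.455) did not pass. The plot of fitted differences gives all 5 comparisons.

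**Figure D3:**
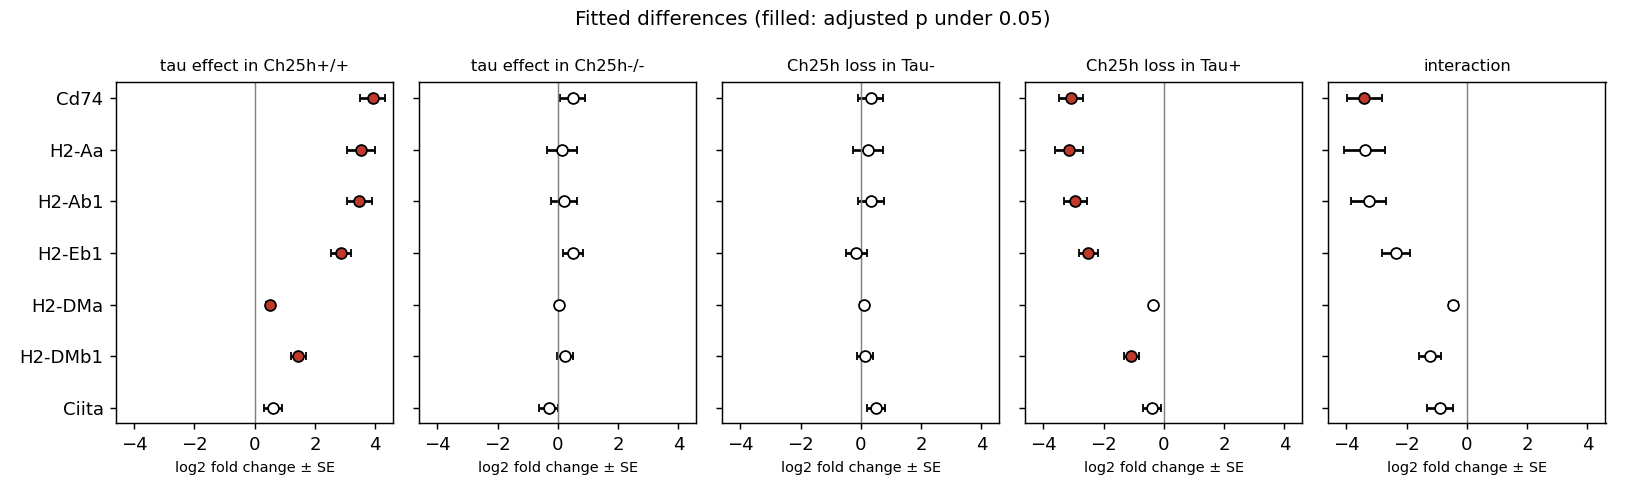
Log2 fold change with its standard error for the 7 class II genes in the 5 comparisons, with filled circles where the edgeR adjusted p was under 0.05. The tau effect in Ch25h+/+ has 6 filled circles, Ch25h loss in Tau+ has 5, the interaction has 1 (Cd74) and the other 2 comparisons have none.

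With library class as a covariate, none of the 7 passed for Ch25h loss in Tau+, since the contrast then rests on 1 Ch25h-/- library, and 10 genes in all passed. The fitted values stayed low at -4.01 for Cd74 (edgeR adjusted p = 0.0606), -4.33 for H2-Aa (0.0999), -3.22 for H2-Ab1 (0.247), -2.60 for H2-Eb1 (0.214) and -1.66 for H2-DMb1 (0.306), and Ciita turned to 0.06. That library, Ch25h-/- Tau+ replicate 1, held 5.67 CPM of Cd74 against 26.4 to 134 CPM in the 4 Ch25h+/+ Tau+ libraries of its own class. Without it, 5 of the 7 genes passed, with Cd74 at -2.86 (adjusted p = 0.00177). The H2-DMb1 call was lost without Ch25h+/+ Tau+ replicate 4, Ch25h-/- Tau+ replicate 3 or Ch25h-/- Tau+ replicate 4 (adjusted p = 0.0977, 0.0558 and 0.0776), against a range of 0.00336 to 0.306 over all alternatives.

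Without tau, where library class and Ch25h genotype cannot be told apart, none of the 7 genes passed for Ch25h loss by edgeR, where 1.03% of all genes passed in either direction, or by limma-voom. DESeq2 called none and gave no adjusted p for 4 of them (H2-Ab1, H2-Eb1, H2-DMb1 and Ciita). None had an unadjusted p under 0.05 by edgeR, against 20.9% of all genes. Log2 fold changes were 0.33 for Cd74 (SE 0.43), 0.23 for H2-Aa, 0.33 for H2-Ab1, -0.15 for H2-Eb1, 0.10 for H2-DMa and 0.13 for H2-DMb1. Ciita was at 0.50 (SE 0.31, adjusted p = 0.369). Its 4 Ch25h-/- Tau- libraries lay above all 4 Ch25h+/+ Tau- libraries, as was so in this direction for 7.64% of all genes. With library class as a covariate, 4 of the 7 turned in direction, among them Cd74 at -0.84 (SE 0.77) and H2-Aa at -1.23 (SE 0.95), and none passed.

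Where Ch25h was absent, none of the 7 genes passed for the tau effect by edgeR, DESeq2 or limma-voom, where 0.0395% of all genes passed by edgeR in either direction. None had an unadjusted p under 0.05 by edgeR, against 3.68% of all genes. Beside the values given above, H2-DMa was at 0.05, H2-DMb1 at 0.23 and Ciita at -0.30. With only the 7 libraries rich in ribosomal RNA in this comparison, that is without Ch25h-/- Tau+ replicate 1, Cd74 was at 0.73 and H2-Aa at 0.41, and none passed. A p that misses the threshold does not show that the groups are alike: the standard error for Cd74 was 0.41 on the log2 scale.

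Whether tau acted differently in the 2 Ch25h genotypes is tested by the interaction. Of the 7 genes, 1 passed, and 0.0338% of all genes tested passed, all of them lower. Cd74 had an interaction of -3.41 (SE 0.58, edgeR adjusted p = 0.0405). H2-Aa was at -3.39 (SE 0.68, adjusted p = 0.100), H2-Ab1 at -3.26 (SE 0.58, adjusted p = 0.0540) and H2-Eb1 at -2.36 (SE 0.47, adjusted p = 0.100). H2-DMa at -0.45, H2-DMb1 at -1.22 and Ciita at -0.90 did not pass (adjusted p of 0.455 or more). The call for Cd74 stood on a narrow margin: it was lost in 13 of the 16 fits that left out 1 library, with adjusted p of 0.00122 to 0.125. Without Ch25h+/+ Tau+ replicate 1, the library with low class II values, 4 of the 7 genes passed, and with library class as a covariate none did.

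The other genes of the class II region were scarce. H2-Oa and H2-Ob encode the chains of H2-O, which restrains H2-DM. H2-Oa stood at 0.240 ± 0.121 CPM in Ch25h+/+ Tau- and 1.34 ± 0.337 CPM in Ch25h+/+ Tau+ (SD, n = 4), a rise of 2.45 on the log2 scale (SE 0.41, edgeR adjusted p = 0.00227). It held 3 to 9 counts in the first group and passed the filter on low counts only through the second, where it is high. H2-Ob went from 0.419 to 1.2 CPM (log2 fold change 1.53, SE 0.40, adjusted p = 0.0649). In Ch25h-/- H2-Oa was at 0.206 and 0.582 CPM (log2 fold change 1.42, SE 0.47, adjusted p = 1), and the interaction was -1.03 (SE 0.65, adjusted p = 1). Replicate 1 of Ch25h+/+ Tau+ was not low for H2-Oa. H2-Eb2 held at most 3 counts and Btnl2 at most 1 in any library, and neither was tested.

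Among genes of invariant chain cutting and endosomal processing, 5 of 10 tested rose with tau in Ch25h+/+ and none fell, with a median log2 fold change of 0.53. Over all genes tested, 1.47% were higher with tau in Ch25h+/+ and 2.40% were lower with Ch25h loss in Tau+. Medians over all genes were -0.01 and 0.00. These values belong beside every list below, and the lists were chosen with earlier results of these data known. Ctss, the cathepsin that makes the last cuts in the invariant chain in many antigen-presenting cells, rose by 1.28 on the log2 scale (SE 0.11, edgeR adjusted p = 4.1e-06), with means of 42.5 ± 2.81 and 103 ± 14.6 CPM (SD, n = 4). The cathepsins Ctsh (0.96), Ctsd (0.77) and Ctsl (0.47) and the legumain gene Lgmn (0.33) also rose. With Ch25h loss in Tau+, 5 of the 10 were lower, with a median of -0.56: Ctss at -1.05, Ctsd at -0.70, Cd63 at -0.59, Ctsl at -0.35 and Lgmn at -0.33. The interaction passed for Ctss at -1.19 (SE 0.16, adjusted p = 0.0131). With library class as a covariate, 1 of the 5 lower calls remained, Ctss at -1.23 (adjusted p = 0.0293).

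Factors that act on the class II promoters or upstream of Ciita were mostly level. Of 15 genes tested, 2 were higher with tau in Ch25h+/+, and the median was -0.01, as over all genes. Irf8, a factor of the microglial and macrophage lineage, was one of them and rose by 1.06 (SE 0.18, edgeR adjusted p = 0.00225). The subunits Rfx5, Rfxap, Rfxank, Nfya, Nfyb, Nfyc and Creb1 passed in none of the 5 comparisons. With Ch25h loss in Tau+, Irf8 (-0.96), Irf1 (-0.50) and Ifngr1 (-0.39) were lower, and none of these 3 calls was left with library class as a covariate. Ifng, which encodes interferon gamma, had 0 counts in all 16 libraries.

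Among partners and costimulators of class II, 2 of 7 genes tested rose with tau in Ch25h+/+. Lag3, a receptor that binds class II, rose by 1.73 on the log2 scale (SE 0.15, edgeR adjusted p = 2.43e-06), with means of 9.31 ± 1.31 and 31.0 ± 5.30 CPM (SD, n = 4), and the costimulator Cd86 rose by 1.28 (SE 0.28, adjusted p = 0.0237). With Ch25h loss in Tau+, Lag3 (-1.61) and Cd274, which encodes the checkpoint ligand PD-L1 (-0.80), were lower. With library class as a covariate the Lag3 call remained and that for Cd274 did not (edgeR adjusted p = 0.976). The interaction for Lag3 was -1.29 (SE 0.21, adjusted p = 0.0335), and it passed in 10 of 23 alternatives and not with that covariate (adjusted p = 0.0618). Cd80 and Cd40 passed in none of the comparisons.

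Class I genes, which present peptides of the cell's own making, passed in the same directions, with medians nearer to 0. All 6 tested were higher with tau in Ch25h+/+, with a median of 1.06: H2-D1 at 1.07, H2-K1 at 1.05, B2m at 0.93, Tap1 at 1.19, Tapbp at 0.46 and the class I transactivator Nlrc5 at 1.27. All 6 were lower with Ch25h loss in Tau+, with a median of -0.95, of which 3 calls remained with library class as a covariate. The interaction passed for H2-D1 alone of the 6 (-0.84, SE 0.13, edgeR adjusted p = 0.0222), and not with that covariate (adjusted p = 0.0565). Over these 4 pathway lists and the class I genes, none passed by edgeR for the tau effect in Ch25h-/- or for Ch25h loss in Tau-. At an unadjusted p under 0.05 there were 1 and 2 of the 10 processing genes, 0 and 3 of the 15 promoter and upstream genes, 1 and 1 of the 7 partner genes, 1 and 2 of the 6 class I genes, and 2 and 0 of the 2 class II region genes tested, against 3.68% and 20.9% of all genes. Over DESeq2, limma-voom and the other alternatives, at most 1 gene of a list passed in either comparison. With 1 library left out, the counts past the threshold for the tau effect in Ch25h+/+ were 4 to 7 of the processing genes, 1 to 2 of the promoter and upstream genes, 1 to 3 of the partner genes and 4 to 6 of the class I genes. For Ch25h loss in Tau+ the counts were 2 to 6, 1 to 3, 1 to 3 and 3 to 6 in the same order. The plot of pathway genes shows 2 of the comparisons for each gene drawn.

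**Figure D4:**
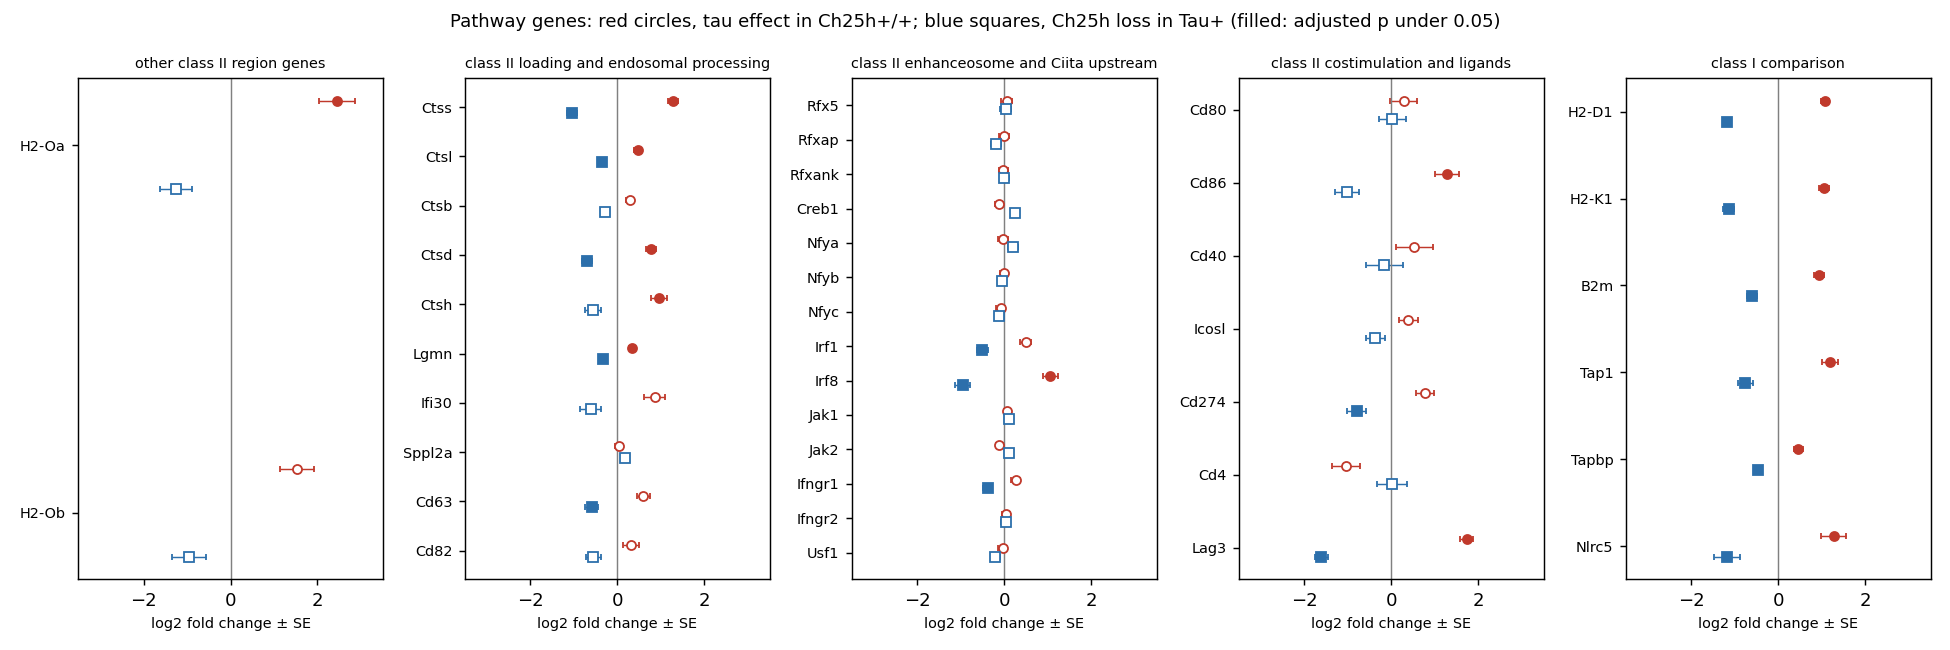
Log2 fold change with its standard error for the pathway genes reported here in 5 panels, as red circles for the tau effect with Ch25h present and blue squares for loss of Ch25h in Tau+, filled where the edgeR adjusted p was under 0.05. All 6 class I genes are filled in both comparisons, while the subunits of the promoter complex are open in both.

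The summed level of microglia markers moved with these results, while most single markers did not pass, and their part in these results was not tested. The summed level of 9 microglia markers was 383 to 488 CPM in Ch25h+/+ Tau+. The other groups were lower, with 313 to 343 CPM for Ch25h+/+ Tau-, 313 to 346 CPM for Ch25h-/- Tau- and 314 to 382 CPM for Ch25h-/- Tau+, and none of them overlapped with it. Of the 9, 3 rose with tau in Ch25h+/+, among them Cx3cr1 (0.51) and Csf1r (0.50), and 6 did not pass. With Ch25h loss in Tau+ 4 were lower, among them Cx3cr1 (-0.43), Csf1r (-0.47) and Tmem119 (-0.39), and 5 did not pass. The medians over the 9 were 0.27 and -0.16, with 1 and 3 of the 9 in the other direction. None of the 4 lower calls was left with library class as a covariate. Their count was 1 to 4 with 1 library left out, at 1 without Ch25h+/+ Tau+ replicate 4 or Ch25h-/- Tau+ replicate 3. As a share of the microglia marker counts, Cd74 spanned 1.45% to 2.57% for Ch25h+/+ Tau-, and 6.90% to 31.5% for Ch25h+/+ Tau+. Without Ch25h the share spanned 1.54% to 3.38% for Tau-, and 1.74% to 4.32% for Tau+. The Cd74 share in Ch25h+/+ Tau+ therefore stayed above that of every other library, while for H2-DMa the share was 2.85% to 3.78% and 2.84% to 4.42% in Ch25h+/+ Tau- and Tau+, which overlap.

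Border-associated macrophages, which carry class II at the brain's surfaces, had 8 markers. Their summed level was 6.05 to 14.3 CPM for Ch25h+/+ Tau-, 12.9 to 21.7 CPM for Ch25h+/+ Tau+, 7.47 to 16.9 CPM for Ch25h-/- Tau-, and 8.62 to 15.3 CPM for Ch25h-/- Tau+. The Tau- and Tau+ sums in Ch25h+/+ overlapped. Of 7 tested, Ms4a7 alone passed, at 1.83 with tau in Ch25h+/+ and -1.39 with Ch25h loss in Tau+. The latter call was lost with library class as a covariate, and without any 1 of Ch25h+/+ Tau+ replicates 1, 3 and 4 and Ch25h-/- Tau+ replicates 2, 3 and 4. The 9 dendritic cell markers summed to 26.5 to 32.8, 30.2 to 49.8, 23.7 to 32.6 and 31.0 to 33.7 CPM in the same order. Of 6 tested, Itgax alone passed, at 5.18 and -3.44, a gene that activated microglia also express, and the second call was lost with library class as a covariate (edgeR adjusted p = 0.306). Without Ch25h-/- Tau+ replicate 2 it was -4.45. Ms4a7 and Itgax passed the filter on low counts only through Ch25h+/+ Tau+, where they are high, so that their calls do not stand for the marker lists. The dendritic cell sums in Ch25h+/+ overlapped as well. Among the dendritic cell markers, Xcr1 was at 0 in 11 libraries and at most 3 counts. Ccr7 was at 0 in 10 libraries, and Clec9a held at most 7 counts. In every library Zbtb46 held 207 to 427 counts and Flt3 126 to 300. Cd209a held 12 to 34, Ccl17 8 to 37 and Batf3 6 to 39. Their part in the class II values was not tested.

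Of the lymphocyte markers, the B cell gene Blk was at 0 in all 16 libraries and Ms4a1 held at most 4 counts, while Ighm at 316 to 858 counts made up most of the summed level of 8 B cell markers. That sum was 32.7 to 42.0, 32.5 to 43.0, 19.8 to 42.4 and 29.5 to 37.9 CPM in the 4 groups, which overlap. The 8 T cell markers summed to 0.554 to 0.832, 1.09 to 1.82, 0.353 to 0.843 and 0.312 to 1.04 CPM in the same order. T cell sums in Ch25h+/+ Tau+ lay above those of the other groups, but Cd3e held at most 6 counts and no T cell marker was tested. The 6 monocyte markers summed to 46.1 to 63.3, 69.8 to 91.6, 61.1 to 101 and 71.6 to 87.7 CPM, mostly from Fn1, and Ccr2 held at most 13 counts. The monocyte sums in Ch25h+/+ Tau- and Tau+ did not overlap, but Ly6c2, Plac8 and Chil3 held at most 10, 3 and 5 counts. Of 3 monocyte markers tested, Fn1 alone passed, at 0.63 with tau in Ch25h+/+ (edgeR adjusted p = 0.0357), a call lost without any 1 of Ch25h+/+ Tau- replicates 1, 3 and 4 and Ch25h+/+ Tau+ replicates 2, 3 and 4. Its part in the class II values was not tested. Choroid plexus markers summed to 15.8 to 2737 CPM and varied widely within every group, as the plot of marker sums shows.

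**Figure D5:**
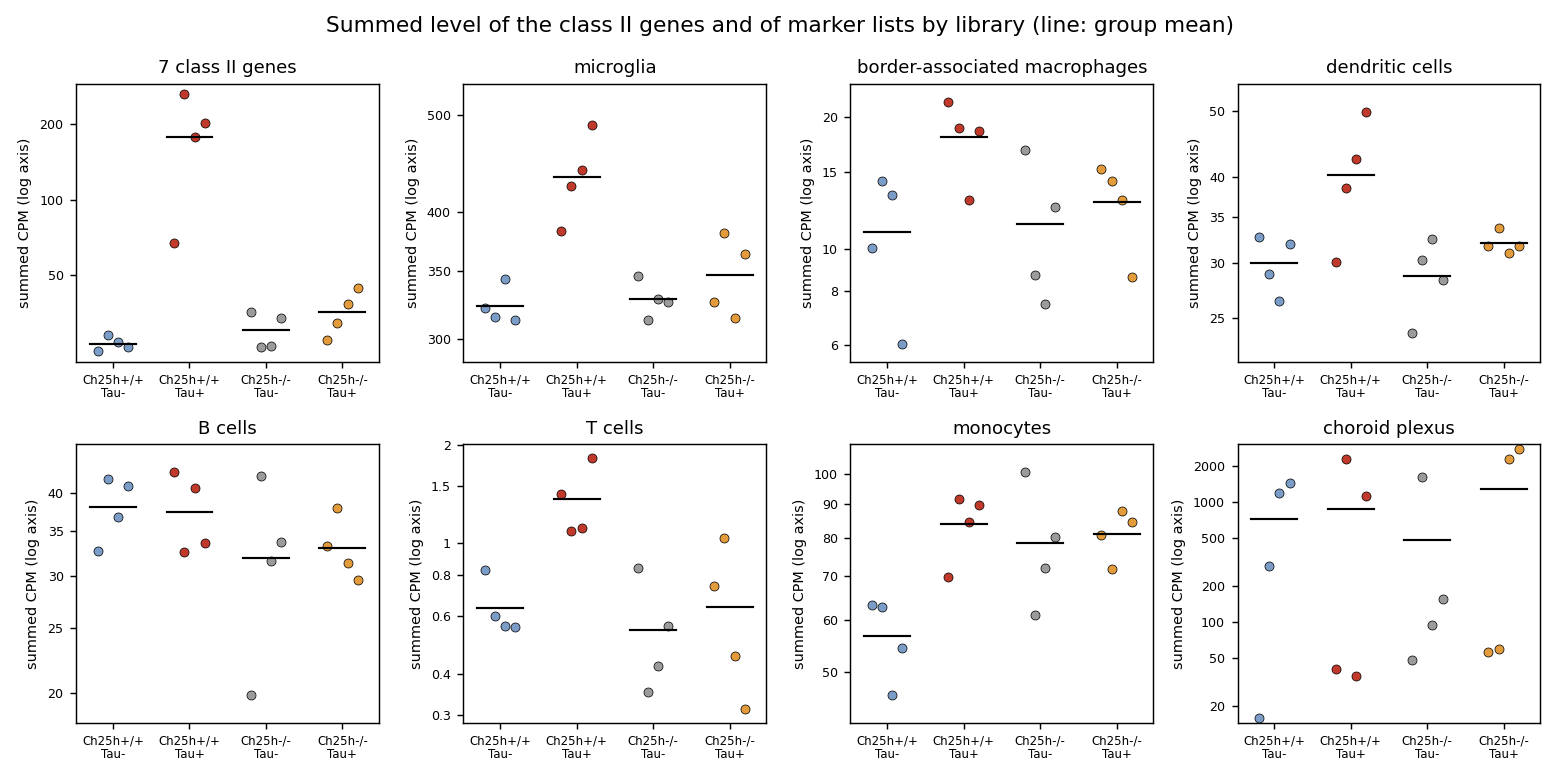
Summed CPM (log axis) of the 7 class II genes and of 7 marker lists in each of the 16 libraries by group, with the group mean as a line. The class II sum was 67.4 to 263 CPM in Ch25h+/+ Tau+ and 24.9 to 44.3 CPM in all other libraries, while the microglia sum was 383 to 488 and 313 to 382 CPM.

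Genes with the profile most like that of the 7 were sought over the 16 libraries, by the root mean square difference between standardized log2 levels. The closest 10 outside the 7 were C3ar1 (0.350), Ptprc (0.364), Cd52 (0.384), Cybb (0.394), Fgr (0.423), Itgax (0.430), Lcp1 (0.435), Csf1r (0.442), Hk2 (0.446) and Nfe2l2 (0.449), against a median of 1.39 over all genes. Of the 7 themselves, H2-Ab1 (0.180), H2-Eb1 (0.181), Cd74 (0.198) and H2-Aa (0.238) lay closest to their common profile, then H2-DMb1 (0.448), H2-DMa (0.717) and Ciita (0.995). Since the profile was built from these 7, their distances describe them only. Fgr and Itgax passed the filter on low counts only through Ch25h+/+ Tau+, the group that is high in the profile. Their likeness was thus partly set in advance. After group means were subtracted, the closest were Timp3 (0.344) and Tjp1 (0.402), and none of the 10 closest was among the 10 named above. The libraries differed in depth and in ribosomal RNA, whose part in the likeness was not tested. The likeness is a description with no test.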

How the data were processed

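RNA sequencing counts of 16 mouse brain libraries were used. Per the labels' protocols, total RNA was isolated on columns and a SMARTer mRNA kit was used for library construction. The deposited table gives raw counts per gene and library, with no normalization by the authors. STAR 2.7 and the builds GRCm38 and mm10 are named in the submitters' processing notes, and the counting program, its annotation and its use of strand are not given in the sources used here. In it, 105 symbols occur repeatedly, and 27 had become dates, so March1 and March8 are not used here. Samples were grouped by the genotype label, and replicates were numbered by record order. Gene positions and exon lengths were taken by symbol from GENCODE M21 (GRCm38).

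filterByExpr over the 4 groups left 17736 genes, which held at least 99.9% of each library's counts. The tests were two-sided quasi-likelihood F tests in edgeR 4.0.16 under R 4.3.3, after TMM scaling, from a single model of the 16 libraries that gives each group its mean. The Benjamini-Hochberg adjustment ran over all 17736 genes, with a threshold of 0.05, and in the text the same groups and test hold where an adjusted p is given alone. Standard errors were taken from the F statistic. CPM were computed on TMM-scaled library sizes, likeness used log2(CPM + 0.5), and levels per kilobase divide CPM by the exon length. A library was called rich in ribosomal RNA at 1000 or more CPM of CT010467.1, taken on its total count. The method was also run on simulated counts that held no library class and no library apart, so that run does not bear on these features. Depth sets the counting error, and reads carry no molecular identifiers, so floors of 3 counts cover counting error only.

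A few genes of the lists are not reported here by name. The 7 genes and the gene lists were chosen with earlier results of these data known. Named were the 7 genes, all genes of the class II region, the members of each pathway list past the threshold in any comparison, and the 10 genes most like the 7; the subunits of the promoter complex, Cd80, Cd40 and single markers were chosen after their values were seen. Alternatives were relative log expression factors, library totals alone, a filter at 1 count only, a mean count of 50 or more, the Wald test of DESeq2 1.42.0, voom with quality weights from limma 3.58.1, a covariate for library class, only the 8 libraries compared, and leaving out each library.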

Additional observations from a re-analysis of the deposited data

Results flagged for a closer look

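The interaction of Ch25h genotype with tau status for Cd74 was -3.41 on the log2 scale (SE 0.58, edgeR adjusted p = 0.0405), a difference between the tau effects of 3.91 in Ch25h+/+ and 0.50 in Ch25h-/-. All 4 Ch25h+/+ Tau+ libraries lay above the 4 Ch25h+/+ Tau- libraries, and the 2 Ch25h-/- groups overlapped. The call did not hold in 13 of the 16 fits that left out 1 library.

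H2-Ab1 in Ch25h-/- Tau+ had 1 library far from the other 3: replicate 4 held 3.87 CPM, and the others 2.23 to 2.47 CPM. This was the only one of 28 combinations of gene and group in which the gap passed Dixon's limit for 4 libraries, and chance alone flags about 1 in 20.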

How the results depend on the processing

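No paired analysis was possible because the labels carry no replicate numbers that the groups share. With a mean of at least 50 counts, H2-DMb1 and Ciita were not tested, so counts under that filter are out of 5 genes. For the tau effect in Ch25h+/+, 5 or 6 genes passed under every alternative and every library left out. For the tau effect in Ch25h-/- and for Ch25h loss in Tau-, 0 of the genes tested passed under each of them, and DESeq2 gave no adjusted p for 4 genes in the latter. For Ch25h loss in Tau+ the count of 5 went to 0 with a covariate for library class, to 6 with DESeq2 and to 4 with only the 8 libraries compared, and to 4 with a mean of at least 50 counts, where H2-DMb1 was not tested, and it was 4 to 5 with 1 library left out. For the interaction the count of 1 was 2 with library totals alone, 4 with no filter beyond 1 count, 4 with DESeq2, 0 with the covariate, and 0 to 4 with 1 library left out. The covariate leaves 1 Ch25h-/- library of its class to compare with. For the other changes the cause was not tested.

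Directions turned only for differences that were not past the threshold. For Ch25h loss in Tau-, the covariate gave -0.84 for Cd74, -1.23 for H2-Aa, -0.053 for H2-Ab1 and -0.60 for H2-DMb1, and limma-voom gave -0.0078 for H2-Aa. For Ch25h loss in Tau+ the covariate gave 0.057 for Ciita. With 1 library left out, Ch25h loss in Tau- ranged from -0.011 to 0.46 for H2-Aa and from -0.025 to 0.55 for H2-Ab1, both lowest without Ch25h-/- Tau- replicate 1. It ranged from -0.012 to 0.28 for H2-DMb1, lowest without Ch25h+/+ Tau- replicate 3. The tau effect in Ch25h-/- ranged from -0.29 (without Ch25h-/- Tau+ replicate 4) to 0.41 for H2-Aa, and from -0.019 (without Ch25h-/- Tau- replicate 3) to 0.56 for H2-Ab1. Without the latter library H2-Aa was at -0.10.

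The totals over all genes also moved. The 629 genes for Ch25h loss in Tau+ became 1494 with DESeq2, 1883 with limma-voom, 106 with only the 8 libraries compared and 10 with the covariate, and 108 to 1691 with 1 library left out. The 182 for Ch25h loss in Tau- became 66 with library totals alone, 522 with no filter, 1124 with DESeq2, 1388 with limma-voom, 1229 with the 8 libraries and 0 with the covariate, and 3 to 1306 with 1 library left out. The 277 for the tau effect in Ch25h+/+ became 424 with DESeq2 and 498 with limma-voom, and 160 to 299 with 1 library left out. The 7 for the tau effect in Ch25h-/- became 28 with no filter, 2 with a mean of at least 50 counts and 14 with DESeq2, and 6 to 13 with 1 library left out. The 6 for the interaction became 57 with no filter, 55 with DESeq2 and 3 with the covariate, and 0 to 22 with 1 library left out. The interaction for Lag3 passed in 10 of 23 alternatives, that for H2-D1 in 19 and that for Ctss in 21. The lowest library held 16 counts of Ciita, 19 each of H2-Aa and H2-Ab1 and 21 of H2-DMb1, which limits the precision of these genes.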
